A study of Mus musculus with 30 samples.

Results

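Keratins are the filament proteins of epithelial cells, and keratin-associated proteins (Krtap genes) fill the space between the keratin filaments of the hair shaft. Their genes were examined here in whole B16 melanoma tumors. A gene was taken when its identifier mapped to a symbol of the form Krt or Krtap followed by a number and when at least 1 tumor held more than 10 counts. Of 39676 genes listed, 77 had such a symbol and 70 met the count rule. The 7 left out had at most 9 counts in any tumor (Krt12, with 9, Krtap29-1 and Krtap9-5, with 7 each, Krt76 and Krt9, with 6 each, Krt13, with 5, and Krtap5-1, with 3), whereas the lowest members were Krt40, at 22, Krt2, at 23, and Krt20 and Krt42, at 24. The 70 members fell into 18 keratins of the epidermis and other epithelia and 52 genes of the hair follicle, namely 7 keratins of the inner root sheath, 10 keratins of the hair shaft and 35 Krtap genes. Krt1, Krt4, Krt6a, Krt6b, Krt8, Krt18 and the hair shaft genes Krt81, Krt82 and Krt84 to Krt87 were not analysed here.

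Keratins work in pairs, an acidic type I chain with a basic type II chain, and the pair tells the cell's place. Krt5 with Krt14 marks basal keratinocytes, Krt10 marks the differentiating layers above them, and Krt16 and Krt17 belong to appendages and to wounded epidermis. The inner root sheath and the hair shaft use pairs of their own, which, like the Krtap genes, are made while a follicle is growing a hair. Melanoma arises from pigment cells, and in skin these proteins are known from keratinocytes and hair follicles.

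The tumors came from B16-F10 cells, a melanoma line of C57BL/6 mice, that had been transduced with retroviruses in sequence and sorted for their fluorescent markers. All 3 lines carried the herpes simplex virus glycoprotein gB, with the marker CFP, and firefly luciferase, with puromycin resistance. B16-IFNA4 cells also carried mouse interferon alpha 4 with GFP, B16-IFNA9 cells interferon alpha 9 with GFP, and B16-GFP cells the GFP vector alone. The cells were injected under the skin of female C57BL/6 mice and 10 whole tumors per line were taken on day 8 for RNA sequencing. The labels do not state whether each tumor came from a separate animal, and how far overlying skin was trimmed away is not given in the sources used here.

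The gene counts summed to 14598517 to 19788383 per tumor, with a median of 16712970.5. The transgenes followed the labels, with 81 to 188 Ifna4 counts in each B16-IFNA4 tumor, 55 to 148 Ifna9 counts in each B16-IFNA9 tumor and 0 of either elsewhere. Melanocyte genes were present in every tumor, their summed level running from 2293 CPM (read counts scaled to a common library size) in the lowest B16-IFNA4 tumor to 24904 CPM in B16-GFP 7. Several libraries stood apart in what follows. B16-GFP 7 and B16-IFNA9 10 held the least epidermal keratin of their types. B16-GFP 1 and 2 and B16-IFNA9 3, 4, 5 and 6 held nearly all the hair follicle keratin. Comparisons are given with and without them.

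Of the 70 members, 59 could be matched to a promoter in RefSeq (build GRCm38.p6), and the 250 bases before the start of transcription are printed for 6 of them to show where 2 short motifs lie in members of the hair follicle lists and in an epidermal keratin. Krt71 (chr15:101743098-101743347) and Krt25 (chr11:99322952-99323201) encode an inner root sheath pair. Krt31 (chr11:100050552-100050801) and Krt34 (chr11:100041555-100041804) are type I keratins of the hair shaft, Krtap11-1 (chr16:89571184-89571433) is a keratin-associated protein, and Krt10 (chr11:99389365-99389614) is the suprabasal keratin of the epidermis. All lie on the minus strand and are written 5′ to 3′ along the gene, with capitals for the TATA box letters TATAAA, searched on the printed strand, and for the letters CTTTGAA, bound by the Wnt-responsive factor LEF1, searched on both strands.

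Krt71: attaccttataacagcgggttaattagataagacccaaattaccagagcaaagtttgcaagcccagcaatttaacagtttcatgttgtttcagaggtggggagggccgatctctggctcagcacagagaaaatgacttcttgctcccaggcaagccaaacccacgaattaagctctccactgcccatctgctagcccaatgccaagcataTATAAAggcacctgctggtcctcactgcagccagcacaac
Krt25: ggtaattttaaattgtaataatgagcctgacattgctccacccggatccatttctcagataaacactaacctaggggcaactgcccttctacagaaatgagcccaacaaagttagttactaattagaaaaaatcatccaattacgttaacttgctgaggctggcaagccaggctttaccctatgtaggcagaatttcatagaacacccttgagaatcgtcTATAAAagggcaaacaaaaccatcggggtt
Krt31: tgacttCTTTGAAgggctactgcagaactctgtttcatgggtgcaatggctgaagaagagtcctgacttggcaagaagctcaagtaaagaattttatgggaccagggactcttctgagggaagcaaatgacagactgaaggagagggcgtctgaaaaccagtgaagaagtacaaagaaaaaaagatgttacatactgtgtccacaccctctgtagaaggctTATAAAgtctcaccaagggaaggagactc
Krt34: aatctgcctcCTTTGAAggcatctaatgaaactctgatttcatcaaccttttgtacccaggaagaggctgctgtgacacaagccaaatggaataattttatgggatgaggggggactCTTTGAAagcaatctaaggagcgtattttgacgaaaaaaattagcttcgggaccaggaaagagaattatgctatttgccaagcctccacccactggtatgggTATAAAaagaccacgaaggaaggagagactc
Krtap11-1: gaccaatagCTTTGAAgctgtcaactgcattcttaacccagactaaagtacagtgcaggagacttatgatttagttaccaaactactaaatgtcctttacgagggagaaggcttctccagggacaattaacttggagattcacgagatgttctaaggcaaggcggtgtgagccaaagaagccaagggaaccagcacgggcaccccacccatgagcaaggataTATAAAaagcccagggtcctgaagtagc
Krt10: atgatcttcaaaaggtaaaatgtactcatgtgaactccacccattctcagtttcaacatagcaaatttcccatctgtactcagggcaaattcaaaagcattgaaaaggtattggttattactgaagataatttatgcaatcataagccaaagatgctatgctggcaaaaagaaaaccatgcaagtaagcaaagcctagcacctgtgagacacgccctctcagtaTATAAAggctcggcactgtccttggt

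The TATAAA letters began 40 bases upstream of the start in Krt71, 30 in Krt25, 29 in Krt31, 31 in Krt34, 28 in Krtap11-1 and 26 in Krt10. They were found in the 250-base window of 37 of 46 hair follicle members (80.4%), against 7.59% of all 32851 promoters. By list, the letters were in 6 of 7 inner root sheath keratins (all but Krt72), 5 of 7 hair shaft keratins and 26 of 32 Krtap genes. Among the epidermal and other epithelial members they were in 1 of 3 suprabasal keratins (Krt10) and 1 of 6 simple and mucosal ones, and in 0 of 2 basal and 0 of 2 stress and appendage keratins. CTTTGAA was in 5 of 7 hair shaft keratins (Krt31, Krt32, Krt33b, Krt34 and Krt39), in 5 of 32 Krtap genes (Krtap1-5, Krtap11-1, Krtap14, Krtap15 and Krtap16-3) and in 0 of 7 inner root sheath keratins, against 4.46% of all promoters. It began 244 bases upstream in Krt31 and 241 in Krtap11-1, and the farther of its 2 matches in Krt34 began 240 bases upstream. These are matches of letters and were not tested for binding. Many of these genes are neighbors with copies alike in sequence, so they are not independent of each other.

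**Figure D1:**
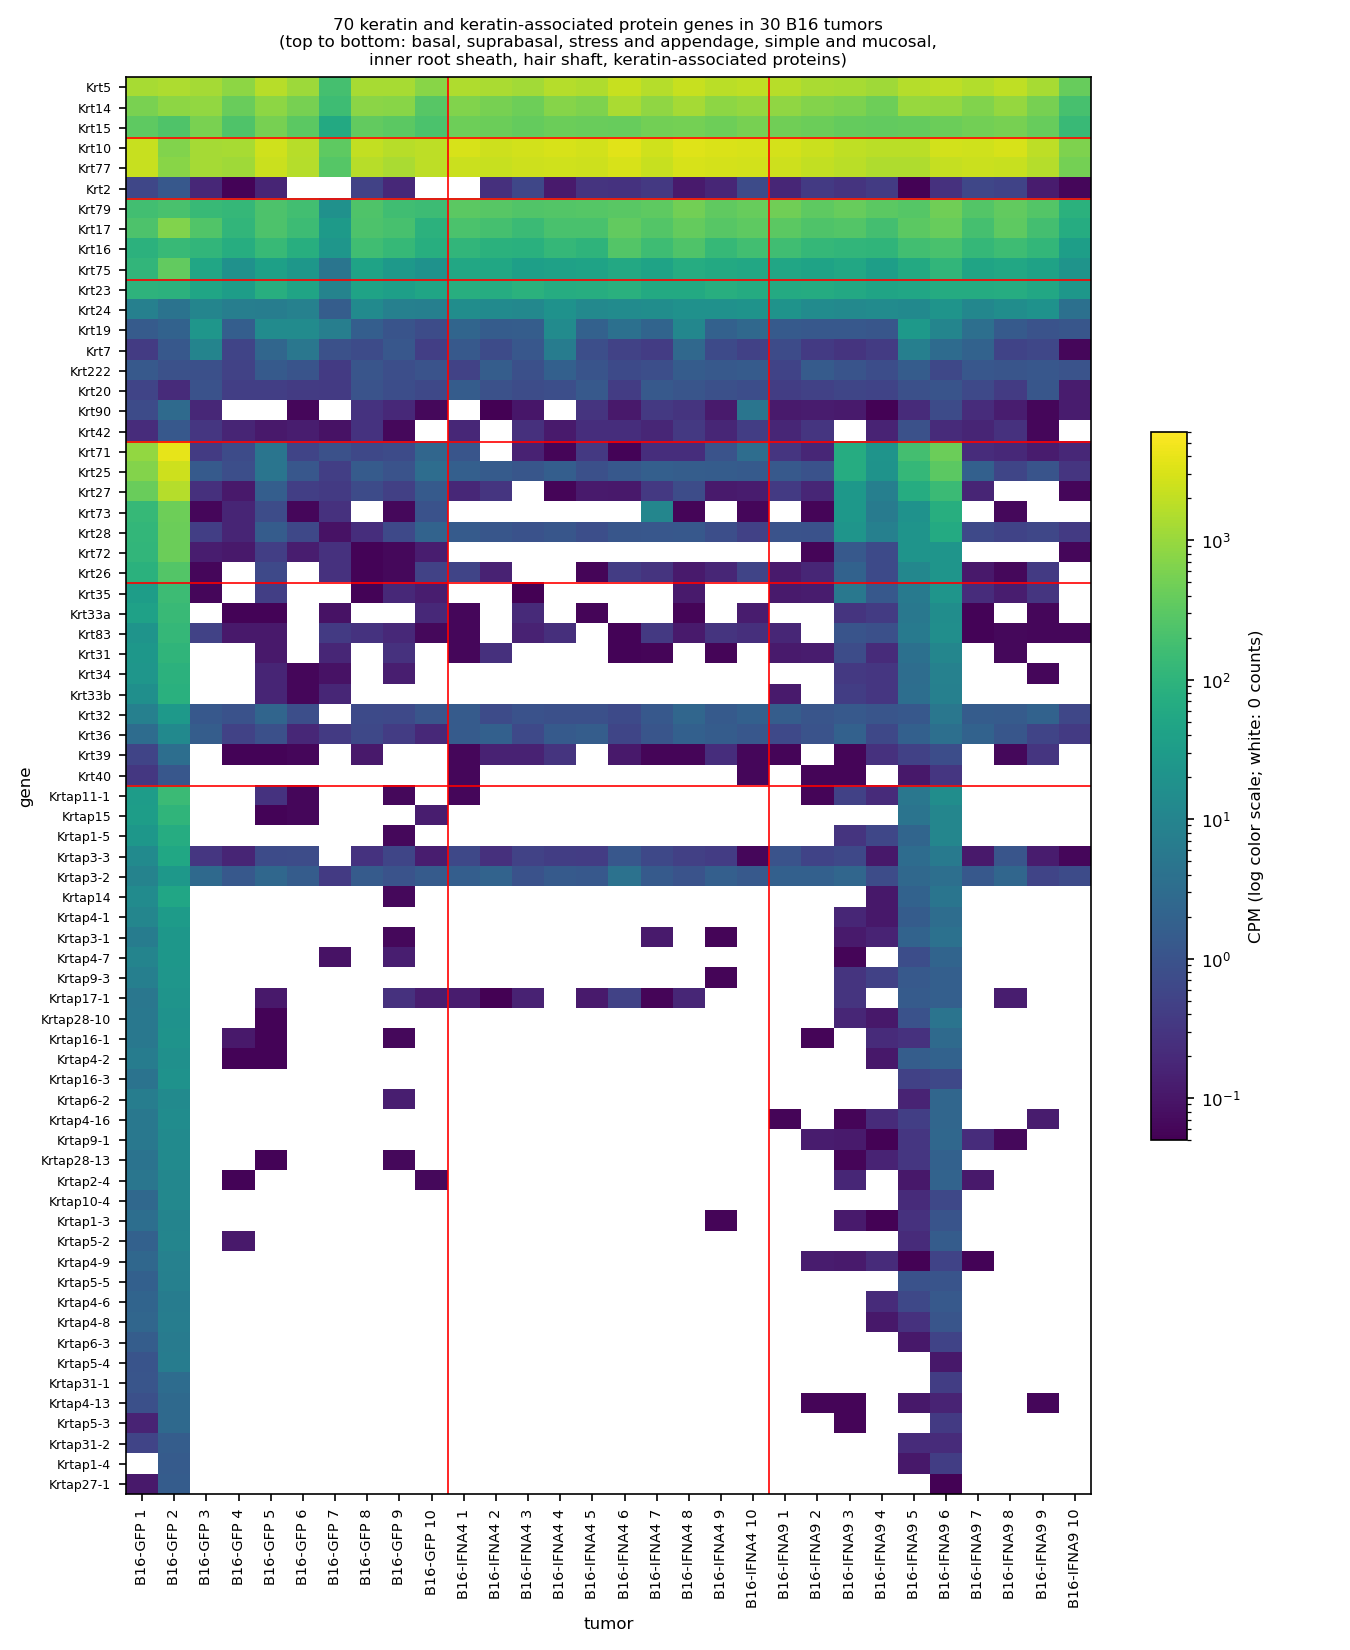
Level of the 70 members (vertical axis) in each of the 30 tumors (horizontal axis, 10 per type) as CPM on a log color scale, with white for 0 counts. The 18 epithelial keratins at the top are filled in every tumor except for Krt2, Krt42 and Krt90. Most hair follicle genes below them are filled chiefly in B16-GFP 1 and 2 and, at lower levels, B16-IFNA9 3 to 6, whereas Krt25, Krt28, Krt36 and Krtap3-2 are counted in all 30 tumors.

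The first comparison asked how the keratins differed between tumors that made interferon alpha 4 and control tumors. In B16-IFNA4 tumors 6 epidermal and other epithelial keratins were higher than in B16-GFP tumors, by 0.63 to 1.05 on the log2 scale, and 34 hair follicle genes were lower. The 50 members with a mean of at least 10 counts entered the test, a quasi-likelihood fit in edgeR over all 30 tumors and 15926 genes, and a gene was called at a Benjamini-Hochberg adjusted p under 0.05. Of all genes tested, 31.3% were called higher and 34.1% lower, so that calls in either direction were common in this comparison. All 6 members called higher came from the 15 epithelial keratins tested (40.0% of them), and the 34 called lower were hair follicle genes. Of the 35 hair follicle genes tested, 17 would still have averaged 10 counts without B16-GFP 1 and 2, and the other 18 entered the test through these 2 control tumors alone, so that their direction was set by the filter and their count supports nothing. The median log2 fold change was 0.49 over the 15 epithelial keratins, against 0.01 over all genes. In bulk tumors, fewer cells of a type and less RNA per cell cannot be told apart.

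The basal keratins form the cytoskeleton of the layer that divides. Krt5 ran from 192 to 1716 CPM in B16-GFP tumors, with a median of 1261. In B16-IFNA4 tumors its lowest, median and highest levels were 1198, 1643 and 2278 CPM, and in B16-IFNA9 tumors 403, 1482 and 1942 CPM. The 3 ranges overlapped, the lowest B16-IFNA4 tumor lying below the B16-GFP median. Krt5 was higher in B16-IFNA4 than in B16-GFP tumors by 0.63 ± 0.24 (log2, SE; edgeR adjusted p = 0.0255), with means of 1709 ± 364 against 1108 ± 425 CPM (SD, n = 10 each). Its type I partner Krt14 averaged 827 ± 294 against 605 ± 253 CPM and did not pass the test (log2 difference of 0.45, edgeR adjusted p = 0.131). Krt15, a basal keratin that is also known from the follicle bulge, averaged 448 ± 56.1 against 320 ± 151 CPM and did not pass either (0.49, edgeR adjusted p = 0.0664). Krt15 was called higher by DESeq2 (0.50, DESeq2 adjusted p = 0.0424), with the replicate number as a block (0.59, edgeR adjusted p = 0.0486) and without B16-GFP 7 and B16-IFNA9 10 (0.38, edgeR adjusted p = 0.0210), and also without B16-GFP 3, B16-GFP 5 or B16-IFNA9 10 alone. Both had the same sign as Krt5.

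Krt10, the acidic chain of differentiating keratinocytes, had the highest level per kilobase of transcript of all members in each tumor type, with means of 738, 1391 and 1021 CPM per kb in B16-GFP, B16-IFNA4 and B16-IFNA9 tumors. In the same order Krt5 had means of 504.5, 778 and 649 CPM per kb and Krt77 499, 882 and 622 CPM per kb. Krt10 ran from 325 to 2636 CPM in B16-GFP tumors (median 1682) and from 2518 to 3587 CPM in B16-IFNA4 tumors (median 2929). Only the top of the control range reached into that of the B16-IFNA4 tumors. The difference was 0.91 ± 0.25 (edgeR adjusted p = 0.00198). Krt77, a type II keratin of the same list, had lowest, median and highest levels of 277, 1474 and 2345 CPM in B16-GFP and 2218, 2561 and 3022 CPM in B16-IFNA4 tumors, and was higher in the latter by 0.82 ± 0.25 (edgeR adjusted p = 0.00432). These 2 were all the suprabasal keratins with enough counts to test. Krt2, with at most 23 counts, was not tested.

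Among the stress and appendage keratins, Krt79 alone was called. It is a keratin of the upper follicle, where the hair canal and the sebaceous duct open. Its level ran from 18.4 to 237 CPM in B16-GFP tumors (median 170) and from 250 to 494 CPM in B16-IFNA4 tumors (median 305). The 2 ranges did not overlap, as was the case for 8.49% of all genes tested in this direction. The difference was 1.01 ± 0.27 (edgeR adjusted p = 0.00148). Krt16 (148 ± 63.2 against 101 ± 41.2 CPM, log2 difference 0.55, edgeR adjusted p = 0.0725) and Krt17 (259 ± 78.6 against 218 ± 171 CPM, 0.25, edgeR adjusted p = 0.513) did not pass. Without B16-GFP 1 and 2 Krt17 did, at 0.67 (edgeR adjusted p = 0.0463). B16-GFP 2 had the highest Krt17 count of all tumors, so leaving it out by itself raises the difference. Krt16 passed with DESeq2 (0.57, DESeq2 adjusted p = 0.0460) and without B16-GFP 8 (0.66, edgeR adjusted p = 0.0347), B16-IFNA4 3 (0.62, edgeR adjusted p = 0.0484) or B16-IFNA9 10 (0.55, edgeR adjusted p = 0.0450). Krt75, of the companion layer of the follicle, averaged 51.7 ± 9.64 against 70.6 ± 108 CPM, and its log2 difference of -0.45 (edgeR adjusted p = 0.376) rested on B16-GFP 2, which held 368 CPM against a control median of 33.6. Without B16-GFP 1 and 2 the difference of Krt75 was 0.84 (edgeR adjusted p = 0.00995).

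Of the simple and mucosal keratins, 2 of the 6 tested were called higher (33.3%, against 31.3% of all genes). Krt24 ran from 1.61 to 13.2 CPM in B16-GFP tumors (median 7.95) and from 12.0 to 20.6 CPM in B16-IFNA4 tumors (median 15.4). The ranges touched only at their ends, and the difference was 1.05 ± 0.24 (edgeR adjusted p = 3.77e-04). Krt20, which in skin marks Merkel cells, had 4 to 18 counts per B16-GFP and 7 to 24 per B16-IFNA4 tumor. At this depth its difference of 0.75 ± 0.29 passed with an edgeR adjusted p of 0.0234, and it did not pass without B16-GFP 1 and 2 (0.63, edgeR adjusted p = 0.0665). Krt23 (72.6 ± 8.86 against 53.4 ± 27.2 CPM) and Krt222 were not called, with edgeR adjusted p of 0.0938 and 0.261. Without B16-GFP 1 and 2, Krt23 was called at 0.74 (edgeR adjusted p = 0.00393), as it was without either of them alone. B16-GFP 2 and B16-GFP 1 had the 2 highest Krt23 counts of all tumors, so leaving them out by itself raises the difference.

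**Figure D2:**
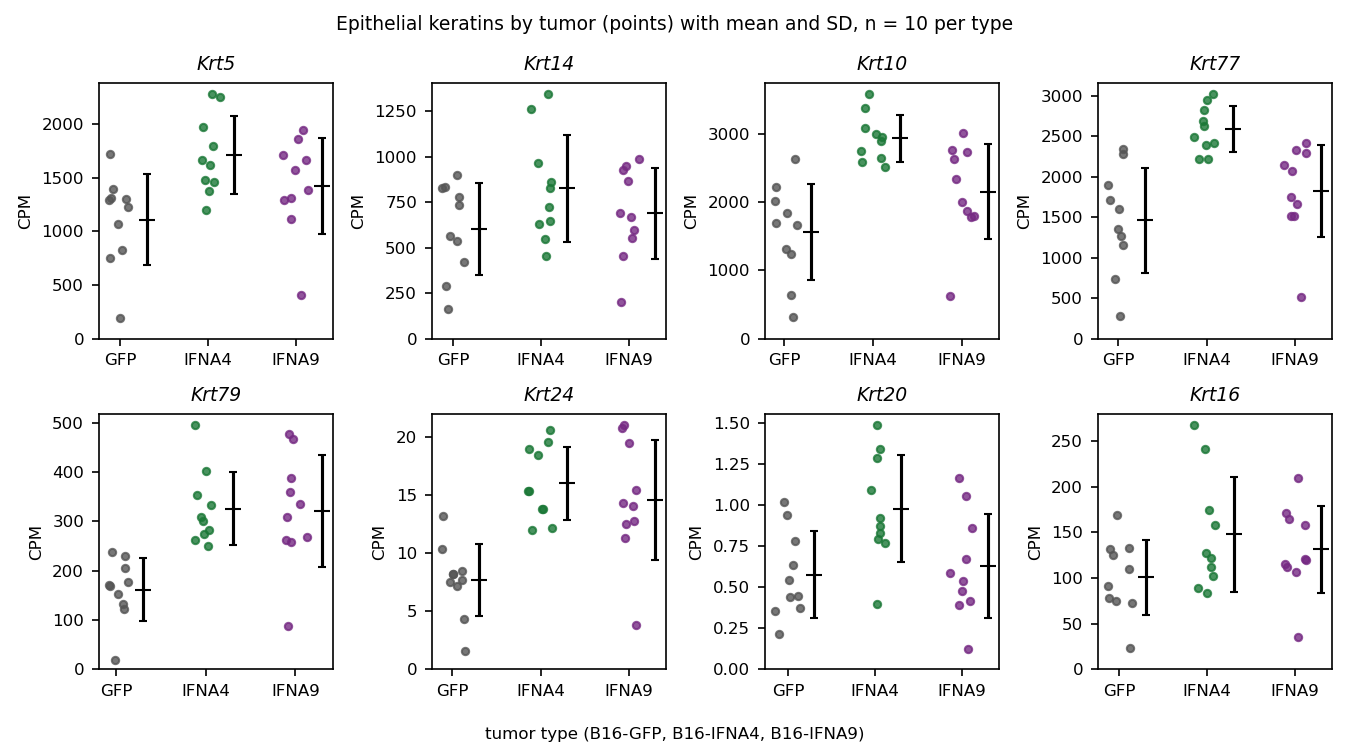
CPM of 8 epithelial keratins in each tumor (points, linear axes from 0), with the mean and SD of the 10 tumors of a type beside them. For Krt79 every B16-IFNA4 tumor lies above every B16-GFP tumor, and for Krt5, Krt10, Krt77 and Krt24 a single B16-IFNA9 tumor, B16-IFNA9 10, lies far below the rest of its type.

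In B16-IFNA9 tumors 2 epithelial keratins were higher than in B16-GFP tumors and 0 were lower by edgeR over all tumors, also at an unadjusted p under 0.05 and by DESeq2, where 26.9% of all genes were called higher and 28.9% lower. Krt79 ran from 88.6 to 478 CPM (median 322) and was higher by 0.99 ± 0.27 (edgeR adjusted p = 0.00231). Krt24 ran from 3.81 to 21.0 CPM (median 14.2) and was higher by 0.92 ± 0.24 (edgeR adjusted p = 0.00198). For Krt79 B16-IFNA9 10 was the only tumor of its type within the control range, whereas for Krt24 other B16-IFNA9 tumors lay within it too. Krt10 averaged 2158 ± 699 and Krt77 1822 ± 569 CPM, and their differences of 0.47 and 0.32 from the controls did not pass (edgeR adjusted p = 0.106 and 0.272). Without B16-GFP 7 and B16-IFNA9 10, Krt10 passed with a difference of 0.46 (edgeR adjusted p = 0.0211). The median over the 15 epithelial keratins was 0.19, against -0.00311 over all genes.

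Between the interferon types, 0 of the 15 epithelial keratins were called in either direction by edgeR, where 10.5% of all genes were higher and 7.25% lower in B16-IFNA9 tumors. At an unadjusted p under 0.05, 2 of the 15 were lower and 0 higher in B16-IFNA9 tumors, and DESeq2 called 0 of them. The median over the epithelial keratins was -0.15. Krt77 had a difference of -0.51 (edgeR adjusted p = 0.156), and without B16-GFP 7 and B16-IFNA9 10 it was called lower in B16-IFNA9 tumors at -0.41 (edgeR adjusted p = 0.0495). A p above the threshold does not show that the types held equal amounts.

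Other genes of the keratinocyte were read beside these keratins. The desmosomes and hemidesmosomes tie keratin filaments to the membrane, and of 17 such genes tested 12 were higher (70.6%, against 31.3% of all genes) and 2 lower in B16-IFNA4 than in B16-GFP tumors, with a median of 0.57. Dsp, the desmoplakin that binds the filaments, averaged 1562 ± 133 against 816 ± 351 CPM with no overlap of the tumors (0.94 ± 0.23, edgeR adjusted p = 8.19e-04). Dsg1b, a desmosomal cadherin, was higher by 1.09 (edgeR adjusted p = 9.21e-04) and Col17a1, a hemidesmosomal collagen, by 1.01 (edgeR adjusted p = 4.94e-04). The 2 that fell were Pkp2 (-0.82, edgeR adjusted p = 4.11e-05), a plakophilin also found outside the epidermis, and Dsg4, the desmoglein of the hair (-3.38, edgeR adjusted p = 0.00746). Dsg4 had a difference of 1.39 without B16-GFP 1 and 2. In B16-IFNA9 tumors 6 of the 17 were higher (35.3%, against 26.9% of all genes) and 1, Pkp2, was lower than in controls.

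Of 15 genes of epidermal identity outside the keratins, 9 were higher (60.0%) and 0 lower in B16-IFNA4 tumors, with a median of 0.64. Sbsn, suprabasin, averaged 1656 ± 184 against 913 ± 436 CPM (0.86 ± 0.26, edgeR adjusted p = 0.00442), and Dmkn, dermokine, 1160 ± 122 against 694 ± 297 CPM (0.74, edgeR adjusted p = 0.00773). Trp63, the regulator of stratified epithelia, was higher by 0.71 (edgeR adjusted p = 0.00715) and Ivl, an envelope protein, by 0.74 (edgeR adjusted p = 0.0186). In B16-IFNA9 tumors 3 of the 15 were higher (Trp63, Ivl and Klk7, a share under the 26.9% of all genes) and Lor, loricrin, was lower (-0.61, edgeR adjusted p = 0.0168).

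Markers of other cell types moved with the tumor types too, and their part in these differences was not tested. Against B16-GFP tumors, 31.3% of all genes were called higher and 34.1% lower in B16-IFNA4, and 26.9% and 28.9% in B16-IFNA9 tumors. All 5 melanocyte genes listed were lower in both interferon types, with median sums of 9546, 3199 and 4766 CPM in B16-GFP, B16-IFNA4 and B16-IFNA9 tumors. Of 5 sebaceous gland genes, 4 were higher in B16-IFNA4 and 3 in B16-IFNA9 tumors, with median sums of 330, 439 and 481 CPM. All 6 leukocyte genes were higher in both (480, 1457 and 1133 CPM), whereas the median sum of the 4 fibroblast genes was 8405, 8552 and 9137 CPM. The 18 epithelial keratins together made up a median of 0.545%, 0.909% and 0.780% of all counts in the same order. At the low end, B16-GFP 7 held 1114 CPM of them, 2797 CPM of fibroblast genes, 192 CPM of leukocyte genes and 24904 CPM of melanocyte genes, the lowest, lowest, lowest and highest values among control tumors. B16-IFNA9 10 held 2137 CPM of epithelial keratins, the lowest of its type, with 9277 CPM of melanocyte genes, the highest of its type, but 7656 CPM of fibroblast genes, within its type's range of 6998 to 11731 CPM. Without these tumors 7 members were higher in B16-IFNA4 and 4 in B16-IFNA9 than in B16-GFP tumors, where 31.6% and 27.1% of all genes were called higher.

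The suprabasal keratins were also set against Krt5 in the same tumor. The median ratio of Krt10 to Krt5 CPM was 1.56 in B16-GFP, 1.75 in B16-IFNA4 and 1.56 in B16-IFNA9 tumors, and that of Krt77 to Krt5 was 1.38, 1.59 and 1.31. The ratio of Krt10 ran from 0.461 to 2.45 in B16-GFP, 1.48 to 2.21 in B16-IFNA4 and 1.08 to 1.69 in B16-IFNA9 tumors. B16-GFP 2 stood outside, with the lowest control ratios of Krt10 (0.461) and Krt77 (0.530) and the highest of Krt17 (0.470) and Krt75 (0.263). Krt79 to Krt5 had medians of 0.143, 0.202 and 0.231. No test was made on these ratios.

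The hair follicle keratins behaved unlike the epidermal ones in that a few tumors held most of their counts. Krt71, a type II keratin of the inner root sheath (Ensembl ENSMUSG00000051879.3, chr15:101733949-101743109, GRCm38), had 16331 counts in B16-GFP 1 and 71362 in B16-GFP 2. Of the B16-IFNA9 tumors, number 3 had 1187, number 4 had 388, number 5 had 3463 and number 6 had 8246. No other tumor had more than 84 counts, and the B16-IFNA4 tumors had 0 to 53. In CPM these 6 tumors held 892 and 3810 among the controls, and 69.7, 20.9, 186 and 435 among the B16-IFNA9 tumors, with 4.62 in the next tumor, B16-GFP 5. They were singled out after their values were seen, and are described one by one. No test compares them with the other tumors, shares of counts are summed over them, and comparisons without them are given below as alternatives.

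The other inner root sheath keratins were highest in the same 6 tumors, Krt73 in part excepted. Krt25, which pairs with Krt71, had 12629 and 46827 counts in B16-GFP 1 and 2, then 1173, 373, 2202 and 6065 in B16-IFNA9 3 to 6, and at most 85 elsewhere. Krt27, another type I partner, had 7600, 31181, 434, 144, 1328 and 2805 counts in these tumors and at most 30 elsewhere. Krt28, Krt73, Krt72 and Krt26 each had their highest count in B16-GFP 2, at 8008, 8465, 8131 and 4814. Krt73 also had 186 counts in B16-IFNA4 7, more than the 122 in B16-IFNA9 4, while Krt72 had 0 in that B16-IFNA4 tumor. Krt72 had 0 counts in all 10 B16-IFNA4 tumors and at most 8 in the other control tumors.

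The hair shaft keratins came at lower levels in the same tumors. Krt31, a type I keratin of the cortex, had 437 and 1965 counts in B16-GFP 1 and 2, then 13, 4, 70 and 203 in B16-IFNA9 3 to 6, and at most 5 elsewhere. Krt35, which appears early in the forming shaft, had 611, 2907, 92, 23, 112 and 417 counts and at most 8 elsewhere. Krt33a (730, 2592, 5, 7, 99 and 297 counts) and Krt83 (383, 2262, 18, 16, 110 and 301 counts) were highest in B16-GFP 2 and 1 as well. Krt32 and Krt36 differed from these, since they were also counted in other tumors, Krt32 with 0 to 42 and Krt36 with 3 to 36 counts. Of the Krtap genes, Krtap11-1 had 584, 2692, 8, 4, 96 and 297 counts and at most 5 elsewhere, and Krtap15 had 623, 1971, 0, 0, 83 and 200. Krtap3-3 had 243, 988, 11, 2, 58 and 118 counts. Thus B16-IFNA9 3 and 4, at 388 or more counts of Krt71, held at most 11 counts of each of these 3 genes.

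All 52 hair follicle members had their highest count in B16-GFP 2, and 48 had their second highest in B16-GFP 1. For 46 of them B16-IFNA9 6 came next. A median of 67.5% of a gene's counts lay in B16-GFP 2 (range 28.2% to 90.3%), and a median of 99.6% lay in the 6 tumors. The level in B16-GFP 2, in CPM, was a median of 3.63 times that in B16-GFP 1 (range 1.97 to 16.6) over the 51 genes with a count in B16-GFP 1. In contrast, 19.3% to 22.0% of the counts of a basal keratin lay in the same 6 of 30 tumors, and no epithelial keratin had more than 36.6% of its counts in any tumor, the highest being Krt90, with 79 counts in B16-IFNA4 10. Together the 52 genes took up 1.12% of all counts in B16-GFP 2 and 0.312% in B16-GFP 1, but 0.133% in B16-IFNA9 6 and 0.00745% in B16-IFNA9 4.

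**Figure D3:**
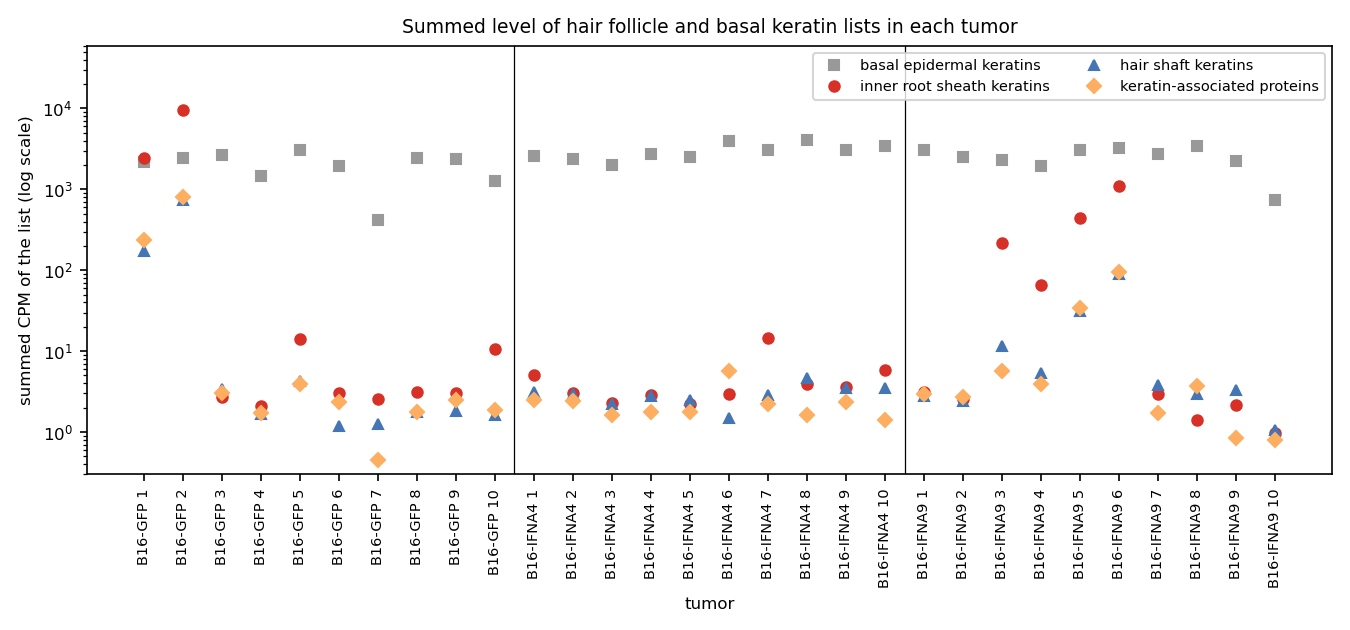
Summed CPM (log axis) of the basal keratins, inner root sheath keratins, hair shaft keratins and Krtap genes in each of the 30 tumors. The basal sum stays between 416 and 4061 CPM, while the inner root sheath sum is at 65.0 CPM or more in 6 tumors, with 9545 CPM in B16-GFP 2, and at 14.6 CPM or less in the other 24.

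Shaft genes were also set against sheath genes within these tumors. The Krtap counts per 100 inner root sheath counts were 9.76 in B16-GFP 1, 8.44 in B16-GFP 2, 7.71 in B16-IFNA9 5, 8.73 in B16-IFNA9 6 and 6.13 in B16-IFNA9 4, but 2.64 in B16-IFNA9 3. The hair shaft keratin counts per 100 were 7.00, 7.71, 7.03, 8.35, 8.20 and 5.37 in the same order of tumors. In B16-IFNA9 4 the sums behind these ratios, 74 Krtap and 99 hair shaft keratin counts, were near those of tumors outside the 6, which had up to 101 and 80 with medians of 35 and 46, and the Krtap sum of B16-IFNA9 3, at 97, lay within that range too, so these ratios cannot be compared with those of the other 4 tumors.

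Of 21 other genes of the growing follicle, 7 had more counts in each of the 6 tumors than in any of the other 24 (Tchh, Tchhl1, S100a3, Hoxc13, Msx2, Dlx3 and Shh), and 14 did not. Tchh, trichohyalin, the matrix protein of the inner root sheath, had 22495 and 87348 counts in B16-GFP 1 and 2, then 1123, 459, 3542 and 8205 in B16-IFNA9 3 to 6, and at most 117 elsewhere. Padi3, which modifies trichohyalin, had 915, 3370, 74, 22, 178 and 355 counts and at most 30 elsewhere, and the cuticle gene S100a3 had 1319, 5598, 40, 30, 239 and 577, with at most 13 elsewhere. Padi3 in B16-IFNA9 4 thus lay under B16-IFNA9 10. Msx2 had 408, 1190, 135, 82, 96 and 300 counts, with at most 42 elsewhere, and Hoxc13, which drives hair keratin genes, 471, 1270, 223, 163, 131 and 398, with at most 96 elsewhere. Shh, the signal of the follicle epithelium, took another order, with 49, 121, 102, 51, 11 and 114 counts and at most 7 elsewhere. Per 1000 Krt71 counts this came to 3.00 and 1.70 Shh counts in the controls, 3.18 in B16-IFNA9 5 and 13.8 in B16-IFNA9 6, but 85.9 and 131 in B16-IFNA9 3 and 4. Lgr5, a stem cell receptor of the follicle, was not confined to these tumors, with 173 to 687 counts in them and up to 310 elsewhere. Gata3 and Foxn1, regulators in the follicle, had as few as 990 and 57 counts in one of the 6 tumors and up to 1706 and 129 elsewhere.

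Of the 35 hair follicle genes tested, 34 were lower in B16-IFNA4 than in B16-GFP tumors. These were all 7 inner root sheath keratins, 7 of 8 hair shaft keratins (Krt31, Krt32, Krt33a, Krt33b, Krt34, Krt35 and Krt83) and 20 Krtap genes (Krtap1-5, Krtap2-4, Krtap3-1, Krtap3-2, Krtap3-3, Krtap4-1, Krtap4-2, Krtap4-7, Krtap4-16, Krtap6-2, Krtap9-1, Krtap9-3, Krtap11-1, Krtap14, Krtap15, Krtap16-1, Krtap16-3, Krtap17-1, Krtap28-10 and Krtap28-13). Krt71 was lower by 9.55 ± 2.13 on the log2 scale (log2 fold change of -9.55, edgeR adjusted p = 2.75e-04), Krt25 had -7.81 ± 1.74 (edgeR adjusted p = 2.71e-04) and Krt31 was called lower too (edgeR adjusted p = 3.19e-04). Leaving out each tumor in turn, Krt71 ran from -10.39 to -7.32 and Krt25 from -7.96 to -5.78. With the replicate number as a block Krt71 (edgeR adjusted p = 0.109) and Krt25 (-2.79, edgeR adjusted p = 0.216) were not called. Of the 20 Krtap genes, 16 passed the filter on low counts through B16-GFP 1 and 2 alone, so they had to be lower here, and 15 further Krtap genes were not tested. The standard errors were wide, and 2 control tumors held most of the counts. For every hair follicle gene tested except Krt72 the ranges of the types overlapped. For Krt72 all control tumors had at least 1 count and all B16-IFNA4 tumors 0, and no overlap in this direction was seen for 10.0% of all genes. In 21 of the 35 genes no B16-IFNA4 tumor had more than 3 counts, so that only a bound can be given, against a floor of 3 counts per tumor. Krt72 was at least 295-fold lower, Krt35 at least 102-fold, Krtap11-1 at least 94.8-fold and Krtap15 at least 75.1-fold. In Krt31, Krt33a, Krt83 and Krtap17-1 a B16-IFNA4 tumor had more than 3 counts but the B16-IFNA4 mean lay under the floor, so for these too no fitted fold is given, and the control mean of Krt31 was 69.6 times the floor. The bounds of Krt72, Krt35, Krtap11-1 and Krtap15 rested on B16-GFP 2, without which they were at least 68.0-fold, 20.5-fold, 19.3-fold and 20.5-fold in the same order. Over the 17 genes that averaged 10 counts without B16-GFP 1 and 2, of which 16 were lower, the median was -6.27 with the 7 genes under the floor at their bounds. These values still rest on the same 2 tumors. Krt32, counted in most tumors, was lower by less (-1.79 ± 0.63, edgeR adjusted p = 0.0133), and Krt36 did not pass (-0.67, edgeR adjusted p = 0.302). When each tumor was left out in turn, Krt32 ran from -1.95 to -0.53, with an edgeR adjusted p of up to 0.333.

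Without B16-GFP 1 and 2, 0 of the 35 hair follicle genes were lower in B16-IFNA4 tumors by edgeR, also at an unadjusted p under 0.05, and Krt36 was higher (1.13, edgeR adjusted p = 0.0164). These are the control tumors that held these genes, left out for that reason, so the loss of these calls follows from the choice of tumors. Krt71 then had a difference of -1.16 (edgeR adjusted p = 0.486), Krt25 of -0.36 (edgeR adjusted p = 0.771) and Krt32 of 0.33. When all 6 tumors were left out, 8 were lower: Krt27, Krt34, Krt35, Krt72, Krt33b, Krtap11-1, Krtap15 and Krtap16-1, while Krt36 was called higher (1.13, edgeR adjusted p = 0.00856). Krt27 had at most 30 counts and the others at most 8 in any remaining control tumor. With edgeR's own filter, under which 23 members were tested, 7 were lower in place of 34. DESeq2 on all tumors called 23 of the 35 lower and not Krt32 (-0.47, DESeq2 adjusted p = 0.358).

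In B16-IFNA9 tumors 10 of the 35 hair follicle genes were lower than in B16-GFP tumors (28.6% of them, against 28.9% of all genes). They were Krt31 (-3.01, edgeR adjusted p = 0.0334), Krt26 (-3.20, edgeR adjusted p = 0.0288), Krt33a (-3.01, edgeR adjusted p = 0.0409) and 7 Krtap genes (Krtap3-2, Krtap3-3, Krtap4-7, Krtap9-3, Krtap11-1, Krtap16-3 and Krtap17-1). Krt71 (-2.72, edgeR adjusted p = 0.116) and Krt25 (-2.59, edgeR adjusted p = 0.0935) did not pass. Of these, Krtap4-7, Krtap9-3, Krtap16-3 and Krtap17-1 passed the filter only through B16-GFP 1 and 2 and had to be lower, which leaves 6 lower among the 17 genes that passed without them, with a median of -2.59 over the 17. The count turned on single tumors, with 0 lower by edgeR without B16-GFP 2, also at an unadjusted p under 0.05, and 33 without B16-IFNA9 6. DESeq2 on all tumors called 2 lower. Without B16-GFP 1 and 2, 32 of the 35 had higher values in B16-IFNA9 tumors and were called, Krt71 with a log2 difference of 5.68. This leaves out the control tumors that held these genes, picked by these same values, and keeps the 4 B16-IFNA9 tumors that held them, so the choice of tumors fixes the direction and the count is no result. The range of every member overlapped that of the controls, as against 4.43% of all genes wholly higher and 3.34% wholly lower.

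B16-IFNA9 tumors had 5 of the 35 hair follicle genes called higher than B16-IFNA4 tumors (14.3%, against 10.5% of all genes). They were Krt71 (6.83, edgeR adjusted p = 0.0144), Krt27 (6.86, edgeR adjusted p = 0.0165), Krt25 (5.23, edgeR adjusted p = 0.0205), Krt35 (at least 19.1-fold, edgeR adjusted p = 0.0166) and Krtap11-1 (at least 11.6-fold, edgeR adjusted p = 0.0375). DESeq2 on all tumors called 14 of the 35 higher, where 10.7% of all genes were. Only 7 of the 35 averaged 10 counts within B16-IFNA4 tumors, Krt71 and Krt25 among them. Krt27, Krt35 and Krtap11-1 entered the test through the other types, so these shares support nothing. The median was 1.84 with genes under the floor at their bounds, over the 34 genes that have a value. Over the 17 genes that averaged 10 counts without B16-GFP 1 and 2 it was 3.55, with 7 of them at their bounds. Without B16-IFNA9 6, only 2 members were called, Krt71 and Krt27, with differences of 5.62 and 5.75. Krt25 was not called (4.06, edgeR adjusted p = 0.0607), and neither were Krt35 and Krtap11-1. The bounds were then at least 8.11-fold for Krt35 and at least 3.53-fold for Krtap11-1. With the replicate number as a block Krt71 (6.51, edgeR adjusted p = 0.0817) and Krt25 (3.96, edgeR adjusted p = 0.135) were not called, whereas Krt31 was (edgeR adjusted p = 0.0317). No member's tumors were wholly apart between these types (2.08% of all genes wholly higher, 0.741% wholly lower). Without all 6 tumors only Krt35 was called, and Krt71 had a difference of -1.58. Among the follicle's other genes 5 of 19 tested were higher in B16-IFNA9 than in B16-IFNA4 tumors (Tchh, Tchhl1, Padi3, Gprc5d and Shh, or 26.3%, against 10.5% of all genes) and 0 lower. Gprc5d, Shh and Tchhl1 had at most 3, 7 and 9 counts outside the 6 tumors, none of which is a B16-IFNA4 tumor. They passed the filter through those tumors alone, so this share supports nothing. In B16-IFNA4 against B16-GFP tumors 13 of the 19 were lower (68.4%, against 34.1% of all genes) and 3 higher (15.8%, against 31.3%). These lower calls rested on B16-GFP 1 and 2, which held most counts of genes such as Tchh and S100a3, and without them 0 of the 19 were lower by edgeR, also at an unadjusted p under 0.05, and 6 were higher. The 3 comparisons share tumors, so they are not independent of one another.

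**Figure D4:**
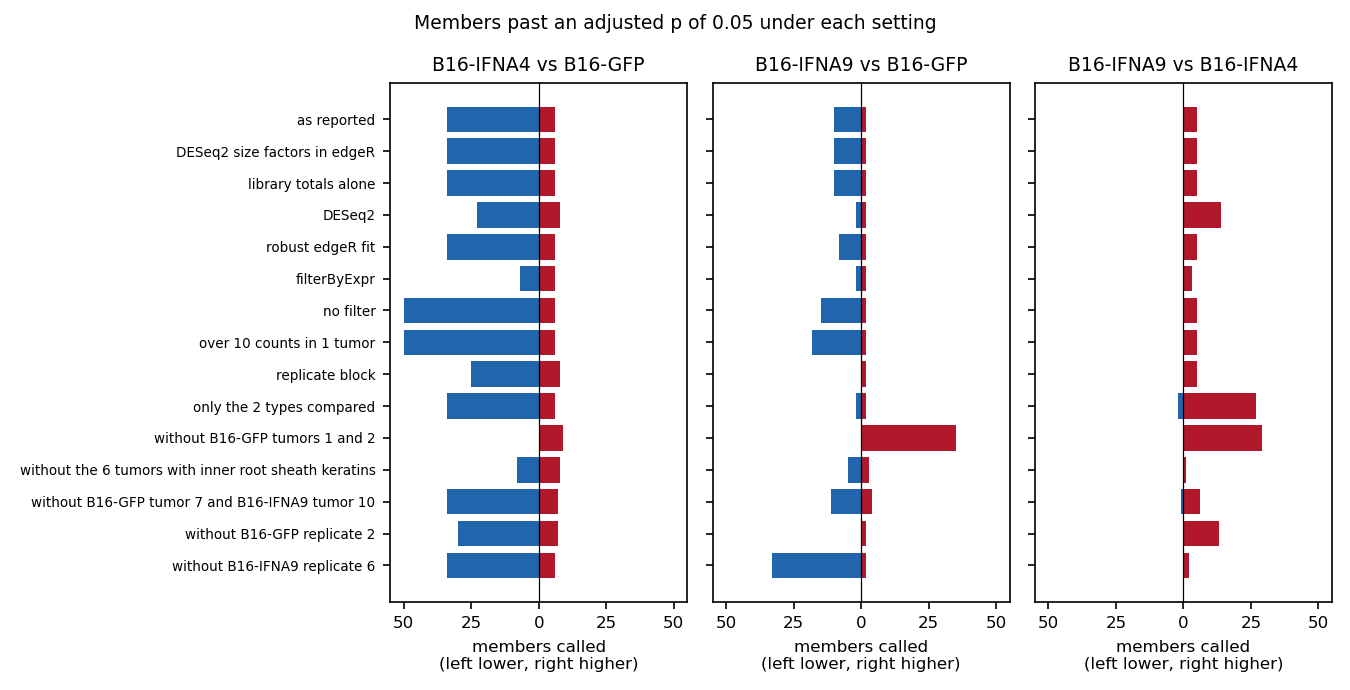
Number of members called lower (left of 0) and higher (right of 0) at an adjusted p under 0.05 in each comparison (panels), for the analysis as reported and under each alternative named at the left. The higher calls of B16-IFNA4 against B16-GFP stay between 6 and 9, whereas the lower calls run from 0 without B16-GFP tumors 1 and 2 to 50 with no filter.

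Krt19 and Krt7, keratins of simple and glandular epithelia, followed other tumors. Krt19 had a median of 1.81 CPM in B16-GFP, 2.25 in B16-IFNA4 and 1.31 in B16-IFNA9 tumors, but reached 27.2 CPM in B16-IFNA9 5, 23.8 in B16-GFP 3, 14.1 in both B16-GFP 5 and 6, 13.9 in B16-IFNA4 4, 10.99 in B16-IFNA4 8 and 10.2 in B16-IFNA9 6. The 7 highest tumors for Krt7 were the same, led by B16-GFP 3 with 9.64 CPM and B16-IFNA9 5 with 7.63 CPM. Neither gene was called in any comparison of all tumors (Krt19, log2 difference of -0.67 and edgeR adjusted p = 0.4 for B16-IFNA4 against B16-GFP). Without the 6 tumors with inner root sheath keratins both were called lower in B16-IFNA9 than in B16-GFP tumors (log2 difference of -2.30 for Krt19, edgeR adjusted p = 0.0117, and of -1.85 for Krt7, edgeR adjusted p = 0.0455), but this leaves out B16-IFNA9 5 and 6, the only B16-IFNA9 tumors among the 7 highest. Of these 7 tumors, 6 also had the 6 highest sums over 8 skeletal muscle genes, from 13260 CPM in B16-GFP 5 to 20613 CPM in B16-GFP 3, whereas B16-IFNA9 6 did not. Of the 8 muscle genes, 5 were lower in B16-IFNA9 than in B16-GFP tumors (62.5%, against 28.9% of all genes). The sum over 7 mammary gland genes was highest in B16-IFNA4 4 (95.0 CPM), B16-IFNA9 6 (75.7 CPM), B16-IFNA4 8 (70.3 CPM) and B16-IFNA9 5 (65.7 CPM), all among the 7 tumors, and ranged over 16.7 to 41.9 CPM in B16-GFP, 26.8 to 95.0 CPM in B16-IFNA4 and 23.5 to 75.7 CPM in B16-IFNA9 tumors. Of the milk protein genes in that list, Csn3 had up to 271 counts and its 6 highest tumors were also among the 7, whereas Csn2, Csn1s1 and Wap were counted in 8, 7 and 4 tumors, with at most 14, 17 and 2 counts. Elf5, also in that list, was instead highest in B16-GFP 2 (16.5 CPM) and B16-GFP 1 (7.81 CPM), neither among the 7. Prlr had the highest count of the list, 1115 in B16-IFNA9 6. The sum over 5 adipocyte genes was led by B16-IFNA9 5 (2256 CPM), B16-IFNA4 8 (1872 CPM), B16-IFNA4 4 (1647 CPM) and B16-GFP 6 (1523 CPM). The part of muscle, mammary gland or fat in the levels of Krt19 and Krt7 was not tested.

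**Figure D5:**
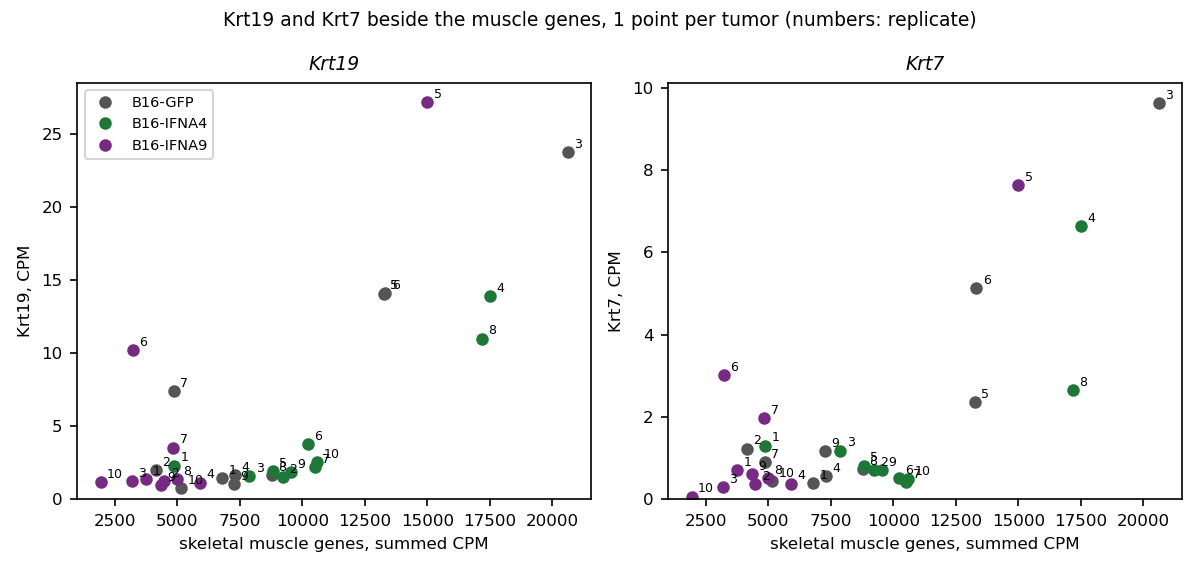
Krt19 (left) and Krt7 (right) in CPM against the summed CPM of 8 skeletal muscle genes, 1 point per tumor, numbered by replicate and colored by type. The 6 tumors at 13260 CPM of muscle genes or more hold 6 of the 7 highest levels of either keratin, and B16-IFNA9 6 holds the other at a low muscle sum.

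Counts of near-identical members can be split between copies. Of the 50-base stretches of each transcript, 37.6% of those of Krt16, 33.1% of Krt34, 28.1% of Krt31 and 13.9% of Krt14 also occur in another gene's transcript, as do 81.3% for Krtap4-13 and 41.3% for Krtap3-3. For Krt5 it was 12.2%, shared with Krt6a among others, whereas Krt10 shared 2.37% and Krt77, Krt79 and Krt24 shared 0. More than 10% were shared in 2 of 3 basal keratins, 1 of 4 stress and appendage keratins, 16 of 35 Krtap genes, 5 of 10 hair shaft keratins and 2 of 7 inner root sheath keratins, so the values of these genes are uncertain one by one. Krt5, Krt7, Krt10, Krt32, Krt75 and Krt90 overlap a gene on the opposite strand, and the strand setting of the counting is not given in the sources used here.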

How the data were processed

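RNA from whole tumors (10 per type, day 8) had been made into stranded poly(A) libraries. Per the paper and the labels, the authors checked reads with FastQC 0.11.3, aligned them with HISAT2 2.0.4 and obtained counts per gene through summarizeOverlaps. The build is mm11 in the methods and mm10 in the submitters' processing notes, and the annotation, strand and multimapping settings are not given in the sources used here. The deposited counts are raw read counts per Ensembl gene, with 1 column per tumor.

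Symbols and positions came from GENCODE M21 (GRCm38), matched by Ensembl identifier without version. Of 39676 identifiers, 39495 had a symbol and 36719 the same version. CPM were scaled by TMM. The 15926 genes averaging 10 counts or more per tumor, 50 members among them, entered a quasi-likelihood test in edgeR 4.0.16 (limma 3.58.1, R 4.3.3) over all 30 tumors without covariates, with Benjamini-Hochberg adjustment over all genes, and SE is the log2 fold change divided by the root of F. DESeq2 1.42.0, other scalings and filters, a block on replicate number, and fits without single or several tumors were alternatives. Promoters were from RefSeq and tables were handled with Python 3.11.15, pandas 2.3.3, numpy 2.4.6 and matplotlib 3.10.9.

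Named were the members called in a comparison or listed among the highest of a list, those with most counts in 1 tumor, and for the other lists the largest changes or levels. Members and lists were chosen with earlier results of these data known. Other genes (such as Shh, Gata3, Foxn1, Lgr5, Msx2, Hoxc13, Padi3, S100a3, Pkp2, Lor and Klk7) and the 6 tumors with hair follicle keratins were singled out after their values were seen. No pair of tumors was identical (lowest chi-square per gene 14.1, over 11436 genes). The labels do not tie tumors to separate animals, so p-values measure the spread between tumors only, and counts carry no molecular identifiers.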

Additional observations from a re-analysis of the deposited data

Results flagged for a closer look

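A tumor was marked where its gap to the nearest tumor of its type as a share of the type's range exceeded Dixon's critical value for 10 samples. Of 84 groups examined, 27 held such a tumor, against 4.2 that chance gives at 1 in 20. The groups are not independent, since the lists share genes and the keratins share tumors. B16-IFNA9 10 accounted for 14 of the 27 and B16-GFP 7 for 8, always as the lowest tumor.

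In B16-GFP 7 the summed level was 8.70 (log2 CPM, as for all values here) for the basal keratins, 6.25 for the stress and appendage keratins and 4.34 for the simple and mucosal keratins. Of the single genes, Krt5 stood at 7.59, Krt15 at 5.95, Krt79 at 4.21, Krt16 at 4.57 and Krt23 at 3.26. In B16-IFNA9 10 the sums were 9.54 for the basal, 10.17 for the suprabasal, 7.74 for the stress and appendage and 4.95 for the simple and mucosal keratins. Krt5 stood at 8.65, Krt14 at 7.66, Krt15 at 7.11, Krt10 at 9.30, Krt77 at 9.02, Krt79 at 6.47, Krt16 at 5.14, Krt17 at 6.13, Krt23 at 4.63 and Krt24 at 1.97. These tumors also had the highest melanocyte sums of their types, and B16-GFP 7 had a TMM factor of 0.768. What set them apart was not tested.

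Among the hair follicle genes, the inner root sheath sum was 3.88 in B16-IFNA4 7, the highest of its type, where 186 counts of Krt73 made up most of it. The Krtap sum was 2.54 in B16-IFNA4 6, Krt31 was at -1.43 in B16-IFNA4 2 with 5 counts, and Krt32 was at 2.40 in B16-IFNA9 6, each the highest of its type. Krt20 was at -0.96 in B16-IFNA4 6, the lowest of its type.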

How the results depend on the processing

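Members higher in B16-IFNA4 than in B16-GFP tumors (6 as reported) numbered 6 to 9 under the alternatives run, and 6 to 8 when each tumor was left out in turn. Krt5, Krt10, Krt77, Krt79 and Krt24 kept this call under all of them, as did Krt79 and Krt24 in B16-IFNA9 against B16-GFP tumors. The other counts moved. Members lower in B16-IFNA4 than in B16-GFP tumors (34 as reported, 30 to 34 leaving out each tumor) were 23 with DESeq2, 7 with filterByExpr, under which 23 were tested, 50 with no filter, which tests all 70, 0 without B16-GFP 1 and 2 and 8 without the 6 tumors with inner root sheath keratins. Members higher in B16-IFNA9 than in B16-GFP tumors (2, or 2 to 3 leaving out each tumor) were 35 without B16-GFP 1 and 2 and 4 without B16-GFP 7 and B16-IFNA9 10. Members lower in that comparison (10) were 2 with DESeq2, 2 with filterByExpr, 15 with no filter, 18 with the filter of over 10 counts in 1 tumor, 2 with only the types compared, 0 without B16-GFP 1 and 2 and 5 without the 6 tumors (3 hair follicle genes, Krt19 and Krt7). Leaving out each tumor gave 0 to 33, with 0 without B16-GFP 2, 6 without B16-GFP 1 or B16-IFNA9 2, 3, 4, 7 or 8, 16 to 17 without B16-GFP 3 to 8 or 10, and 33 without B16-IFNA9 6. Members higher in B16-IFNA9 than in B16-IFNA4 tumors (5) were 14 with DESeq2, 3 with filterByExpr, 27 with only the types compared, 29 without B16-GFP 1 and 2 and 1 without the 6 tumors, with 2 to 13 leaving out each tumor (13 without B16-GFP 2, 2 without B16-IFNA9 6). Members lower (0) were 2 with only the types compared and 1 without B16-GFP 7 and B16-IFNA9 10, with 0 to 1 leaving out each tumor (1 without B16-GFP 7). Leaving out the 6 tumors, and B16-GFP 7 with B16-IFNA9 10, was chosen after seeing the data, and leaving out B16-GFP 1 and 2 from earlier results of these data. Where tumors were not left out, the cause of a change was not tested.

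The labels do not say whether equal replicate numbers pair tumors of different types. Correlations of same-numbered tumors ran from -0.27 to 0.30, but other pairs were not correlated, so they cannot decide this. With the replicate number as a block 8 members were higher and 25 lower in B16-IFNA4 than in B16-GFP tumors. In B16-IFNA9 tumors 2 were then higher and 0 lower than in B16-GFP tumors, and 5 higher and 0 lower than in B16-IFNA4 tumors. In the last comparison Krt71 and Krt25 lost the call and Krt31 was among the 5. Krt71 and Krt25 also lost the call in B16-IFNA4 against B16-GFP. Signs that turned under the block, as log2 differences, were Krt75 (0.30 and 0.25) and Krt36 (0.26 and 0.25) in B16-IFNA4 and B16-IFNA9 against B16-GFP, Krt19 in B16-IFNA4 against B16-GFP (0.066) and in B16-IFNA9 against B16-IFNA4 (-0.68), and Krt71 (1.51), Krt25 (1.17), Krt27 (0.70), Tchh (1.26) and Dsg4 (0.21) in B16-IFNA9 against B16-GFP.

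Without B16-GFP 1 and 2 the sign turned in B16-IFNA4 against B16-GFP for Krt75 (0.84), Krt32 (0.33), Krt36 (1.13), Dsg4 (1.39) and Tchh (0.34), and in B16-IFNA9 against B16-GFP for Krt75 (0.88), Krt71 (5.68), Krt25 (4.89), Krt27 (5.21), Krt31 (4.52), Krt32 (0.81), Krt36 (1.22), Dsg4 (3.39) and Tchh (4.68). Without the 6 tumors it turned in B16-IFNA4 against B16-GFP for Krt75 (0.84), Krt32 (0.33), Krt36 (1.13), Dsg4 (1.39) and Tchh (0.34), in B16-IFNA9 against B16-GFP for Krt75 (0.62), Krt20 (-0.19), Krt32 (0.48), Krt36 (0.70), Dsg4 (0.71) and Tchh (0.15), and in B16-IFNA9 against B16-IFNA4 for Krt19 (-1.37), Krt7 (-1.08), Krt71 (-1.58), Krt25 (-0.47), Krt27 (-0.65), Dsg4 (-0.68) and Tchh (-0.19). Leaving out each tumor, Krt75 ran from -0.57 to 0.46 (B16-IFNA4) and -0.63 to 0.48 (B16-IFNA9), Krt36 from -0.81 to 0.56 and -0.89 to 0.63, and Dsg4 in B16-IFNA9 from -2.53 to 0.18 against B16-GFP, each positive only without B16-GFP 2. Against B16-IFNA4, Krt19 ran from -0.76 to 0.64 and Krt7 from -0.77 to 0.68 in B16-IFNA9 tumors, with the lowest values without B16-IFNA9 5. Against B16-GFP, Krt7 ran from -1.20 to 0.10 in B16-IFNA4 and from -1.32 to 0.13 in B16-IFNA9 tumors. In the latter, Krt19 ran from -1.44 to 0.02 against B16-GFP. Counts of 10 or fewer, as for most Krtap genes outside the 6 tumors, limit these values.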
